A study of Mus musculus with 16 samples.

Results

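The major urinary proteins are small secreted lipocalins that the mouse genome encodes in a single cluster of duplicated genes. Described here are 10 of them, Mup1, Mup2, Mup3, Mup7, Mup10, Mup11, Mup12, Mup17, Mup20 and Mup21, chosen by symbol from the 53465 rows of a liver gene count table in which 48 rows carry a Mup symbol. The table holds RNA-seq counts from the livers of 16 C57BL/6 mice aged 29 to 30 weeks, in 4 groups of 4 mice, each mouse being a replicate by the study's design. The CD vehicle mice ate a control diet (CD) for 16 weeks and then received vehicle for 8 weeks, and the CD PFOA mice ate the same diet and then received perfluorooctanoate (PFOA), a perfluorinated surfactant that activates the nuclear receptor PPARA, for 8 weeks. The HFD vehicle and HFD PFOA mice ate a high-fat diet (HFD), given to make the liver steatotic, for 16 weeks, and then received vehicle or PFOA for 8 weeks. Neither the dose of PFOA nor the sex or litter of the mice is stated in the labels used here.

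Hepatocytes secrete major urinary proteins into the blood, from which they are filtered into the urine. There they hold volatile pheromones in a hydrophobic pocket and release them slowly from scent marks. Mup20, also called darcin, acts as a pheromone itself and makes a male's scent attractive and memorable to females. In the liver the genes are known to depend on pulses of growth hormone acting through the growth hormone receptor and STAT5B, with further input from androgens, thyroid hormone and glucocorticoids, which makes many of them far more abundant in males than in females.

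In GENCODE M21 (GRCm38) the cluster spans chr4:59956804-62150863, a stretch of 2.19 Mb between Slc46a2 and Zfp37 that holds 22 protein-coding Mup genes and 0 other protein-coding genes. All 10 members are annotated as protein-coding genes on the minus strand. Mup20 lies at chr4:62050234-62054158, Mup3 at chr4:62083476-62087342 and Mup21 at chr4:62147932-62150863, together near 1 end of the cluster. Mup17 lies at chr4:61591929-61595871 and Mup11 at chr4:60658466-60662411, among the central copies.

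How far the members' reads can be told apart differs between genes, and a window of 90 coding bases is printed to show it. It covers bases 104 to 193 of Mup11, counted from the A of the start codon in GENCODE M21, and the aligned bases of the others, and was taken where Mup3, Mup20 and Mup21 together differ most from Mup11. Capitals mark the bases that differ from Mup11.
Mup11: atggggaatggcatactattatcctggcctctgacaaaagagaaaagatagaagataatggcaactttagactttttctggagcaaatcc
Mup2: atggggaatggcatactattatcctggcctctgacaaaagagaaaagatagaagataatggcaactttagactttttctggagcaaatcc
Mup17: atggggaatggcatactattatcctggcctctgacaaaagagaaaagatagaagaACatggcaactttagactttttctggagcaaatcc
Mup20: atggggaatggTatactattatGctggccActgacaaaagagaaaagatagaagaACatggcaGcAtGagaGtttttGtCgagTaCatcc
Mup3: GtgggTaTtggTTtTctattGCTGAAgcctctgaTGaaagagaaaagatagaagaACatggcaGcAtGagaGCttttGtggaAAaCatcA
Mup21: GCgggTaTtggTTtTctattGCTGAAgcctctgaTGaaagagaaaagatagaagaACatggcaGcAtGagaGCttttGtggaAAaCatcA
Mup2 and Mup11 have the same letters over this window, Mup17 differs from them at 2 bases, Mup20 at 13, Mup3 at 26 and Mup21 at 27. Over the whole coding sequence Mup1, Mup2, Mup7, Mup10, Mup11, Mup12 and Mup17 differ from each other at 1 to 7 of 540 bases, and they are called the near-identical members below. Mup3 and Mup21 differ from each other at 20 of 543 bases (96.32% identity), and the closest coding relative of Mup20 is Mup5, with 45 of 540 bases differing (91.67% identity). Of the 50-base stretches of the coding sequence, 74.2% in Mup3 and 75.5% in Mup21 occur in no annotated transcript of another gene, on either strand. For Mup20 the share is 15.2%, because 419 of its 494 stretches also occur in the pseudogene Mup-ps19, which averaged at most 0.265 CPM (counts per 1000000 counts of a library, with totals scaled by TMM) in any group. Among the near-identical members the share was between 0% (Mup2 and Mup11) and 10.2% (Mup17). A read from these 7 genes can therefore be assigned to the wrong copy or dropped, so their rows are uncertain as single genes. Mup3, Mup20 and Mup21 are called the divergent members below; if reads that fit several genes were dropped, which the sources used here do not state, Mup20 would be counted less fully than Mup3 and Mup21.

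The start-site windows repeat the same division and are shown for 2 near-identical and 2 divergent members, as the 150 bases upstream of the RefSeq start (GRCm38.p6, minus strand). They are chr4:60139857-60140006 for Mup2, chr4:61595833-61595982 for Mup17, chr4:62087318-62087467 for Mup3 and chr4:62150842-62150991 for Mup21. Capitals mark the letters TATATAA, which match a form of the TATA box. They lie at -27 to -21 from the RefSeq start in Mup2, -25 to -19 in Mup17, -11 to -5 in Mup3 and -8 to -2 in Mup21. The GENCODE spans of these genes reach further upstream than the RefSeq starts, so the marked letters fall inside the genes as GENCODE annotates them. Whether they act as a TATA box was not tested.
Mup2: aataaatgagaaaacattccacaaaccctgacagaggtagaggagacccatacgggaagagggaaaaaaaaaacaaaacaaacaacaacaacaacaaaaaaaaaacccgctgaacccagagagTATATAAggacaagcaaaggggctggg
Mup17: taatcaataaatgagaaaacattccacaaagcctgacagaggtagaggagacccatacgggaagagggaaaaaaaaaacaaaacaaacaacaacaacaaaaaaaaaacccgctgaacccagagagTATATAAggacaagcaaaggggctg
Mup3: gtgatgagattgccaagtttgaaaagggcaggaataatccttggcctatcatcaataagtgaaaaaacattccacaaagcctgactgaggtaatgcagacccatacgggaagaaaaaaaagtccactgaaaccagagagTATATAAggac
Mup21: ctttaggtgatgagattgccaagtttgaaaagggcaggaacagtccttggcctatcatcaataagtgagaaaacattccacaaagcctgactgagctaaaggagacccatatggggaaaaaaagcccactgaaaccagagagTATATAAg
RefSeq promoter windows matched 7 of the 10 members, with no entry for Mup1, Mup12 and Mup20. Within 250 bases upstream, on both strands, TATATAA occurred in 5 of the 7 windows (Mup2, Mup3, Mup10, Mup17 and Mup21), against 3.04% of 32851 mouse promoters of the same length. This motif was chosen after the windows were seen, and on 1 strand it can overlap a match to the usual TATA box form. The Mup11 window ends inside the stretch that holds the motif in Mup2 and Mup17, and the Mup7 window ends further upstream. Pairs of the 7 windows share 82.9% to 99.6% of their aligned bases. They are thus related copies and not independent promoters, and the count is a description only. That form, TATAAA (12.4% of promoters), had no match in these 7 windows, nor had the STAT motif TTCNNNGAA (7.02% of promoters) or the PAR bZIP motif TTATGTAA (0.819%).

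Library totals ranged from 14456524 to 25778125 counts. Tests used edgeR's quasi-likelihood model over all 16 libraries with Benjamini-Hochberg adjustment over 14998 genes, a gene is said to be called, or to have risen or fallen, when its adjusted p was below 0.05, and 9 of the 10 members passed the filter on low counts, all but Mup10. All 12 listed PPARA-responsive genes rose with PFOA on each diet, led by Acot1 (log2 fold change 4.83 ± 0.16 SE on CD and 5.15 ± 0.16 on HFD). Over all tested genes 11.8% rose with PFOA on CD and 8.60% on HFD. Of 10 hepatocyte markers 9 fell with PFOA on each diet, where 12.6% of all tested genes fell on CD and 7.91% on HFD. With HFD in vehicle mice 7 of these markers fell, where 5.21% of all tested genes did. Their summed level was 109295 to 142279 CPM in CD vehicle, 61869 to 79012 in CD PFOA, 83690 to 97973 in HFD vehicle and 55728 to 67295 in HFD PFOA, and in bulk liver fewer hepatocytes and less RNA per hepatocyte cannot be told apart. None of the 10 hepatocyte markers was at 0 in any library, whereas Ly6g (neutrophils) and Lep (adipocytes) were at 0 in all 16.

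The livers differed in the members' summed counts before any single gene is considered. The 10 members held 0.458% ± 0.158 (SD, n = 4) of all counts in CD vehicle livers, 0.285% ± 0.0809 (n = 4) in HFD vehicle, 0.0348% ± 0.00798 (n = 4) in CD PFOA and 0.0365% ± 0.0179 (n = 4) in HFD PFOA. The CD vehicle mean was 13.2 times the CD PFOA mean and 1.61 times the HFD vehicle mean, and the HFD vehicle mean was 7.81 times the HFD PFOA mean. Every vehicle liver (lowest 0.210%) lay above every PFOA liver (highest 0.0632%), while the ranges of the vehicle groups overlapped. Most of this sum was Mup3 and Mup20 (means of 85.1% and 10.5% of the members' counts in CD vehicle). The summed CPM of the near-identical members differed less, 5.74-fold between the CD vehicle and CD PFOA means and 1.70-fold between those on HFD. Reads that fit several genes may have been dropped, so the shares may be too low.

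Levels between genes are compared per kilobase of annotated exon, and their order depends on how reads that fit several genes were counted, as Mup20 has a smaller share of stretches of its own than Mup3. Mup3 was the most abundant member in all 4 groups, at 4084 ± 1718 CPM per kb (SD, n = 4) in CD vehicle, 198 ± 40.9 in CD PFOA, 1513 ± 435 in HFD vehicle and 199 ± 128 in HFD PFOA. Mup20 followed, at 482 ± 38.9, 113 ± 37.7, 1055 ± 296 and 119 ± 31.9 CPM per kb in the same order of groups. The ranges of Mup3 and Mup20 overlapped in HFD vehicle and in HFD PFOA livers, and did not in the control diet groups. Next in CD vehicle came Mup17 (124 ± 97.7 CPM per kb) with Mup21 behind it (84.7 ± 28.5), a difference smaller than the spread between the livers. All other members averaged at most 20.6 CPM per kb, the value of Mup7 in CD vehicle.

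Mup3 was the divergent member with the highest level in CD vehicle livers. In CD vehicle livers 1 to 4 it measured 4164, 6303, 5036 and 1945 CPM, against 249, 166, 181 and 248 CPM in CD PFOA livers. In HFD vehicle livers it measured 2250, 1639, 1403 and 1171 CPM, against 416, 164, 131 and 138 CPM in HFD PFOA livers. PFOA and vehicle livers did not overlap on either diet. CD vehicle 4 was the lowest of the CD vehicle livers and HFD PFOA 1 the highest PFOA liver of both diets.

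Mup20, the pheromone darcin, was the only member with a higher level on HFD in vehicle mice that passed the test. Its CPM was 407, 437, 454 and 493 in CD vehicle livers and 1250, 1039, 596 and 1032 in HFD vehicle livers, so the vehicle groups did not overlap. With PFOA the values were 134, 83.7, 67.4 and 136 CPM on CD and 152, 92.8, 109 and 86.9 CPM on HFD. The PFOA livers of both diets covered much the same range, below all vehicle livers.

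Mup21, the closest relative of Mup3, was much less abundant. It measured 52.3, 83.6, 56.2 and 37.4 CPM in CD vehicle and 9.01, 7.78, 11.3 and 11.4 CPM in CD PFOA livers. On HFD it measured 26.5, 15.0, 12.2 and 10.1 CPM with vehicle and 6.99, 5.69, 4.70 and 4.70 CPM with PFOA. The vehicle livers lay above the PFOA livers of the same diet in each case, and all HFD PFOA livers lay below all CD PFOA livers.

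**Figure D1:**
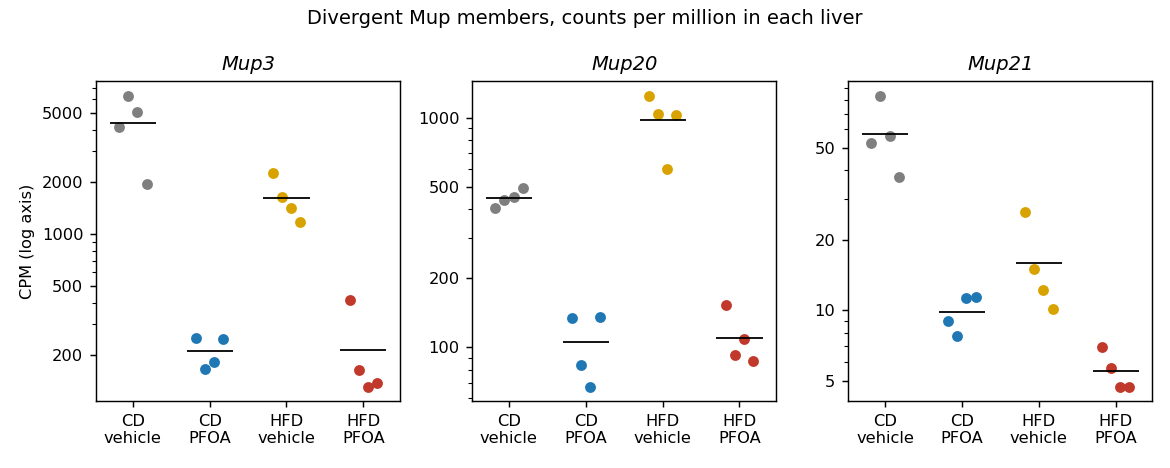
CPM (log axes) of Mup3, Mup20 and Mup21 in each of the 16 livers, 1 point per liver and a line at the mean of each group of 4. PFOA livers sit below vehicle livers of the same diet for all 3 genes, and HFD vehicle livers sit below CD vehicle livers for Mup21 (10.1 to 26.5 against 37.4 to 83.6 CPM) but above them for Mup20 (596 to 1250 against 407 to 493 CPM).

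Among the near-identical members Mup17 held most counts, a rank that may depend on how reads that fit several genes were counted. Mup17 also had the largest share of 50-base coding stretches of its own among them (10.2%). Its CPM was 224.98, 65.5, 148 and 20.4 in CD vehicle, 20.4, 25.4, 24.6 and 27.6 in CD PFOA, 116, 20.2, 10.5 and 2.72 in HFD vehicle, and 60.2, 11.2, 15.7 and 8.26 in HFD PFOA livers. CD PFOA livers were close together whereas the other groups spread widely, with CD vehicle 4, the lowest of its group, level with the CD PFOA livers.

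Mup11 and Mup7 showed the same uneven pattern. Mup11 measured 40.5, 25.8, 29.2 and 2.65 CPM in CD vehicle, 4.11, 3.97, 2.02 and 1.27 in CD PFOA, 22.0, 2.45, 0.599 and 0.268 in HFD vehicle, and 5.80, 0.286, 2.02 and 0.939 in HFD PFOA livers. Mup7 had 732, 569, 604 and 8 counts in CD vehicle, 15, 17, 0 and 5 in CD PFOA, 68, 41, 0 and 3 in HFD vehicle, and 42, 1, 13 and 0 in HFD PFOA livers. In both genes CD vehicle 4 was below the other CD vehicle livers by more than they differed among themselves, and livers 1 of both HFD groups were the highest of their groups.

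The remaining members had at most 137 counts in a library, with 3 counts, the floor used here, worth 0.115 to 0.200 CPM depending on the library (counting error only). Mup12 had 12 to 137 counts per library in CD vehicle and 4 to 25 in CD PFOA, 4 to 42 in HFD vehicle and 3 to 33 in HFD PFOA. Mup1 had 0 to 63, 0 to 13, 0 to 35 and 2 to 31 counts in the same order. Mup2 had 14 to 48, 8 to 14, 5 to 29 and 0 to 6 counts, and Mup10 had 25, 8, 8 and 6 counts summed over the 4 livers of each group.

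**Figure D2:**
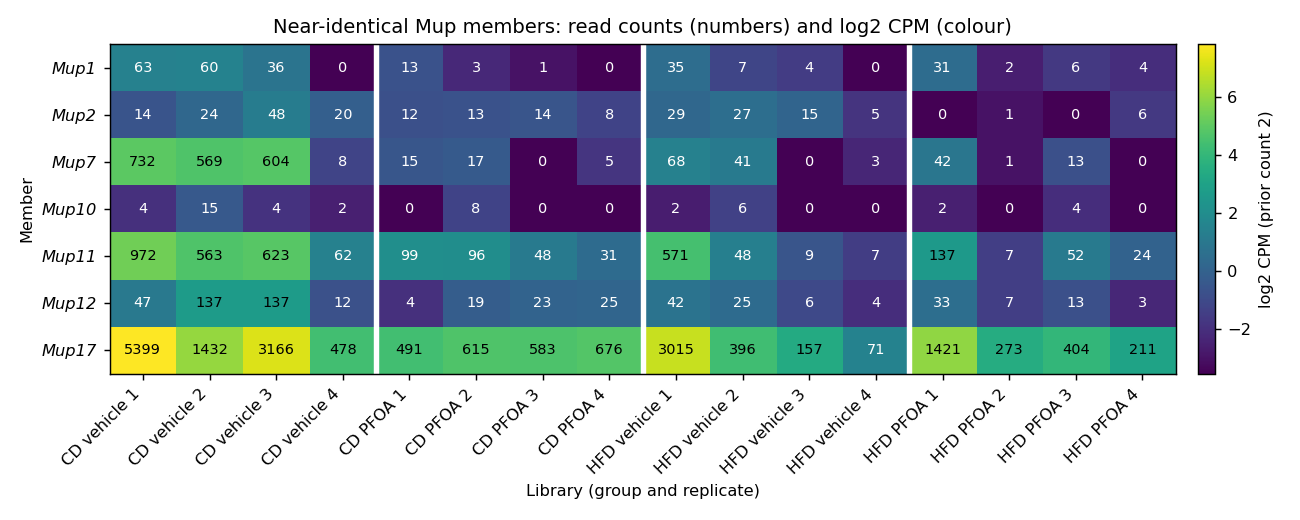
Read counts (numbers) and log2 CPM with a prior count of 2 (colour) of the 7 near-identical members (rows) in the 16 libraries (columns). CD vehicle 4 is dark beside the other CD vehicle livers (8 counts of Mup7 against 569 to 732), and HFD vehicle 1 and HFD PFOA 1 are bright beside the rest of their groups (3015 and 1421 counts of Mup17).

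The question of the first comparison is what PFOA did to these genes in mice on the control diet. Mup3 fell 20.7-fold (log2 fold change -4.37 ± 0.39 SE, edgeR adjusted p = 8.72e-08, lower in 4 of 4 livers than any control, n = 4 per group). Mup21 fell 5.80-fold (-2.54 ± 0.27, edgeR adjusted p = 7.73e-07) and Mup20 fell 4.25-fold (-2.09 ± 0.23, edgeR adjusted p = 1.73e-06), also without overlap. In all, 6 of 9 tested members fell and 0 rose, where 12.6% of all tested genes fell and 11.8% rose. The median log2 fold change over the 9 members was -2.54, and all 9 estimates lay below 0.

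The other calls on the control diet were near-identical members whose groups overlapped through CD vehicle 4. They were Mup7 (-5.78 ± 1.20, edgeR adjusted p = 0.00130), Mup11 (-3.11 ± 0.99, adjusted p = 0.0262) and Mup12 (-2.35 ± 0.81, adjusted p = 0.0402). Mup17 (-2.23 ± 0.83, edgeR adjusted p = 0.0577), Mup1 (-3.28 ± 1.27, adjusted p = 0.0685) and Mup2 (-1.28 ± 0.75, adjusted p = 0.239) did not pass. The Mup11 call was lost without CD vehicle 1 (edgeR adjusted p = 0.0598), CD PFOA 3 (0.0651) or CD PFOA 4 (0.0736), and the Mup12 call was lost on leaving out any of CD vehicle 2 and 3 and the 4 CD PFOA libraries (edgeR adjusted p 0.0596 to 0.119). Without CD vehicle 4 the calls gained Mup17 (-2.58, edgeR adjusted p = 0.0201) and Mup1 (-3.70, 0.0218); Mup1 also passed without CD PFOA 1 (-4.86, 0.0345), and Mup17 without HFD vehicle 1 (0.0187), HFD vehicle 4 (0.0326) or HFD PFOA 1 (0.0408), which enter only the shared spread. Mup7 (adjusted p = 0.312), Mup11 (0.0783) and Mup12 (0.140) were not called with limma-voom.

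On the high-fat diet PFOA lowered the same 3 divergent genes. Mup20 fell 8.88-fold (-3.15 ± 0.24, edgeR adjusted p = 1.51e-08), Mup3 fell 7.61-fold (-2.93 ± 0.37, adjusted p = 9.22e-06) and Mup21 fell 2.91-fold (-1.54 ± 0.27, adjusted p = 0.000418), none with overlap between the groups of 4. Mup2 also fell (-3.62 ± 0.90, edgeR adjusted p = 0.00754), on 0 to 6 counts per HFD PFOA library; its estimate was -5.60 without HFD PFOA 4, which held 6 of the 7 counts. In all, 4 of 9 tested members fell and 0 rose, where 7.91% of all tested genes fell and 8.60% rose. The other 5 members had estimates from -1.53 (Mup11) to -0.18 (Mup1) that did not pass, with wide intervals, for Mup17 a 95% interval of the log2 fold change from -2.43 to 1.10. Without HFD vehicle 1 the estimates of Mup1 (1.14), Mup11 (1.04) and Mup17 (1.11) lay above 0.

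The diet alone, compared in vehicle mice, split the divergent members. Mup21 was 3.58-fold lower on HFD (-1.84 ± 0.26, edgeR adjusted p = 0.000265) and Mup3 was 2.70-fold lower (-1.43 ± 0.35, adjusted p = 0.0120), whereas Mup20 was 2.19-fold higher (1.13 ± 0.23, adjusted p = 0.00360). The groups did not overlap for Mup21 and Mup20; for Mup3 CD vehicle 4 lay inside the HFD vehicle range. In all, 3 of 9 tested members fell and 1 rose, where 5.21% of all tested genes fell and 5.19% rose. The remaining fall was that of Mup7 (-4.09 ± 1.06, edgeR adjusted p = 0.0181), which did not pass with DESeq2 (adjusted p = 0.0711) or limma-voom (0.426).

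Of the near-identical members other than Mup7, none was called by edgeR for diet in vehicle mice, while DESeq2 called Mup12 lower (-2.12, adjusted p = 0.0431). Their estimates ran from -2.11 ± 0.81 for Mup12 (edgeR adjusted p = 0.104) to -0.38 ± 0.73 for Mup2 (adjusted p = 0.817). Leaving out the filter on low counts raised the members called lower from 3 to 6, and single libraries changed further calls. Without HFD vehicle 1 Mup11 (-4.49, edgeR adjusted p = 0.00706) and Mup17 (-3.38, 0.0126) fell, and without CD vehicle 4 Mup12 fell (-2.48, 0.0277). Without HFD vehicle 4 the calls of Mup3 (-1.30, edgeR adjusted p = 0.0506) and Mup7 (-3.68, 0.0617) were lost, which left Mup21 as the 1 member called lower. Among markers of other cell types, 5 of 12 macrophage genes rose with HFD in vehicle mice (summed level 570 to 778 CPM against 280 to 544 in CD vehicle). So did 5 of 9 stellate cell genes (615 to 675 against 259 to 495 CPM), where 5.19% of all tested genes rose. None of these markers was at 0 in a library, and their part in these differences was not tested.

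Among PFOA-treated mice no member was called for diet, 0 of 9 in either direction, where 0.0133% of all tested genes fell and 0.0467% rose. Mup3 differed by a log2 fold change of 0.01 (95% interval -0.74 to 0.75) and Mup20 by 0.07 (-0.43 to 0.56). Mup21 was lower on HFD in every liver (-0.84 ± 0.27, unadjusted p = 0.00605, edgeR adjusted p = 0.238), as was Mup2 (-2.71 ± 0.90, unadjusted p = 0.00682, adjusted p = 0.245). These 2 were the members with an unadjusted edgeR p below 0.05, where 11.1% of all tested genes had, and DESeq2 and limma-voom also called 0. Mup21 was called without the filter on low counts (edgeR adjusted p = 0.00973) and without the 3 libraries CD vehicle 4, HFD vehicle 1 and HFD PFOA 1 (0.0436).

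**Figure D3:**
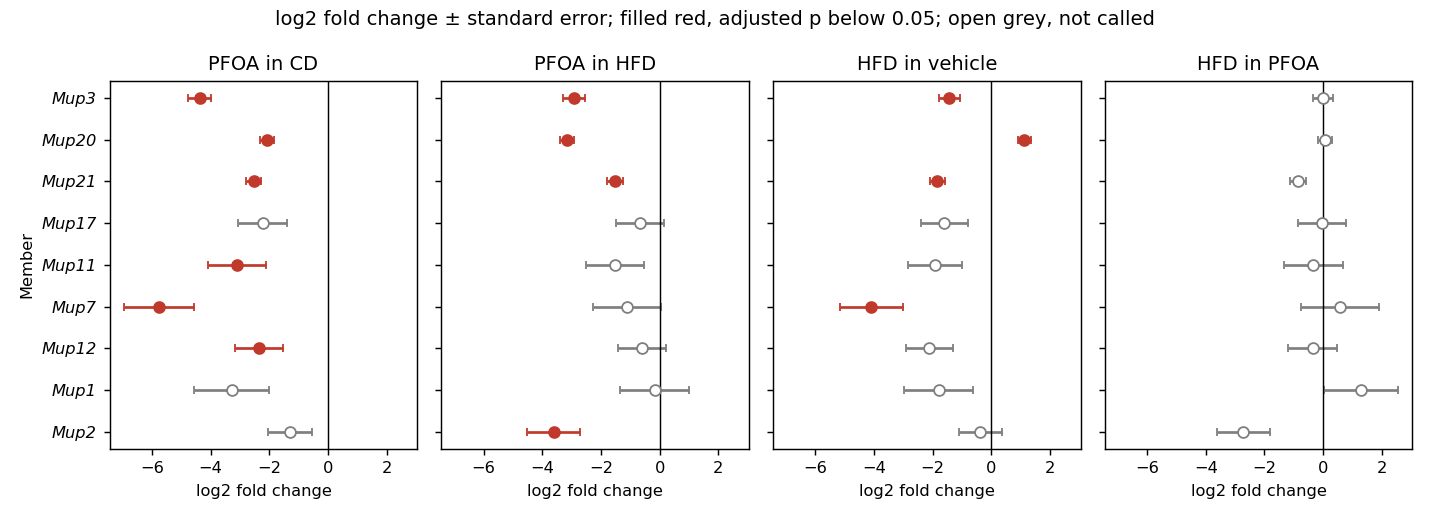
Log2 fold changes (points) with standard errors (bars) of the 9 tested members in the 4 comparisons between groups, filled where edgeR's adjusted p was below 0.05. With all libraries estimates lie left of 0 for all 9 members under PFOA on both diets (on HFD Mup1, Mup11 and Mup17 turn to the right without HFD vehicle 1), Mup20 alone lies right of 0 for the high-fat diet in vehicle mice (1.13), and no point is filled for diet in PFOA mice.

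Whether the response to PFOA differed between diets was tested as an interaction, and 0 of 9 members passed in either direction, where 0.0667% of all tested genes were higher and 0.140% lower. The estimate, PFOA effect on HFD minus that on CD, was -1.06 for Mup20 (edgeR adjusted p = 0.175), 1.44 for Mup3 (0.243), 4.66 for Mup7 (0.270) and 0.997 for Mup21 (0.290). Of the 9 members 4 had an unadjusted edgeR p below 0.05, where 10.9% of all tested genes had, and DESeq2 and limma-voom called 0. Without the filter on low counts 4 passed, Mup3 (edgeR adjusted p = 0.00114), Mup20 (0.00116), Mup7 (0.00171) and Mup21 (0.0361). Without CD vehicle 4 Mup3 (1.69, edgeR adjusted p = 0.0411) and Mup7 (5.06, 0.0491) passed.

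Mup20 and Mup3 moved apart with diet, so their ratio is given as a description, whose size depends on the same unstated counting of shared stretches. Mup20 had 0.0977, 0.0693, 0.0902 and 0.254 counts per Mup3 count in CD vehicle livers 1 to 4 (mean 0.128), the highest being CD vehicle 4. The ratio was 0.425 to 0.881 in HFD vehicle (mean 0.624), 0.373 to 0.547 in CD PFOA (mean 0.491) and 0.366 to 0.837 in HFD PFOA (mean 0.600). The CD vehicle livers thus stood below all others in this ratio. Mup3 made up 85.1% of the members' counts in CD vehicle and 60.9%, 59.5% and 57.8% in HFD vehicle, CD PFOA and HFD PFOA, while Mup20 made up 10.5%, 37.1%, 29.1% and 33.8%.

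**Figure D4:**
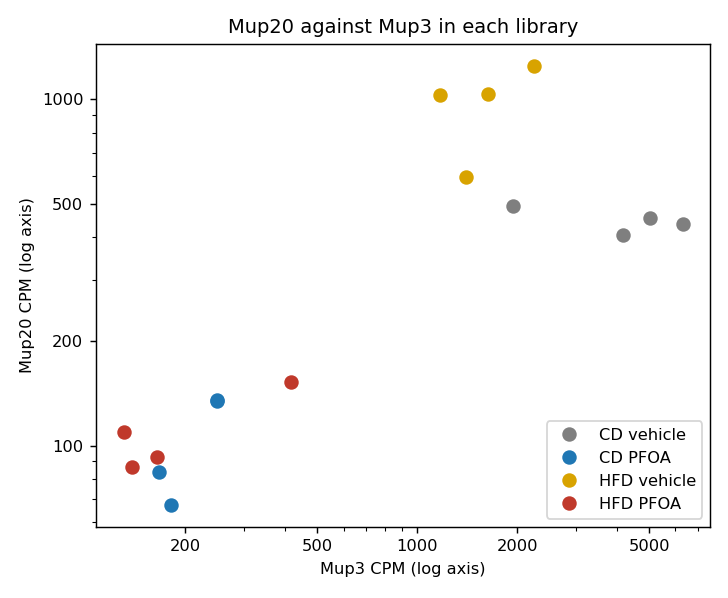
Mup20 against Mup3 in CPM (both axes log) in the 16 livers, coloured by group. The HFD vehicle livers lie above the CD vehicle livers and to the left of 3 of them, and the PFOA livers of both diets share the lower left corner, with at most 152 CPM of Mup20.

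Some libraries departed from their group in several near-identical members at once, whose rows can share reads. CD vehicle 4 was below the mean of the other livers of its group in all 7 (median difference -2.87 in log2 CPM) and HFD vehicle 4 in all 7 (-2.16), while HFD vehicle 1 was above in all 7 (2.60) and HFD PFOA 1 in 6 of 7 (2.40). Deviations from the group means over the 16 libraries correlated with a median r of 0.614 over the 21 pairs of near-identical members (0.0485 to 0.905), which share libraries and most of their sequence; whether they shared reads was not measured. Mup3, a divergent member, departed in the same libraries, by -1.39 in CD vehicle 4, -0.563 in HFD vehicle 4, 0.694 in HFD vehicle 1 and 1.54 in HFD PFOA 1. Its deviations correlated with those of Mup1 (r = 0.812), Mup7 (0.747), Mup12 (0.733), Mup17 (0.714) and Mup11 (0.691), and less with Mup10 (0.279) and Mup2 (0.0708). Over the 21 pairs of a near-identical and a divergent member the median r was 0.480 (-0.289 to 0.812). Mup3 and Mup21 deviated together (r = 0.785), Mup20 and Mup21 less so (r = 0.302).

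Other gene lists moved in the same libraries, and their part in the results was not tested. In CD vehicle 4 all 8 B and plasma cell genes were above each of the other 3 CD vehicle livers (summed level 647 CPM against 18.8 to 32.6), as were 10 of 12 macrophage genes (544 against 280 to 336 CPM), and 15 of 23 other male-biased liver genes were below each of them (2473 against 4126 to 4504 CPM). In HFD PFOA 1 18 of 23 male-biased genes were above each of the other 3 livers of the group (3692 against 2067 to 2338 CPM). In CD vehicle 1 all 24 acute phase genes were above each of the other 3 CD vehicle livers (76346 against 27488 to 33096 CPM). With CD vehicle 4, HFD vehicle 1 and HFD PFOA 1 left out together, an alternative chosen after seeing the data, the members called lower numbered 8 for PFOA on CD, 3 for PFOA on HFD (Mup2 was lost, edgeR adjusted p = 0.0516), 7 for HFD in vehicle mice and 1 for HFD in PFOA mice, which was Mup21 (-0.97, adjusted p = 0.0436).

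The other 38 rows with a Mup symbol, 11 coding genes and 27 pseudogenes, were mostly at low counts, and 15 passed the filter. With PFOA on CD 6 of the 15 fell (Mup4, Mup6, Mup9, Mup-ps18, Mup-ps21 and Mup-ps22) with a median of -2.40 over the 15, and on HFD 2 fell (Mup-ps21 and Mup-ps22), where 12.6% and 7.91% of all tested genes fell. For HFD in vehicle mice 0 of the 15 were called, with a median of -0.85. Of the coding genes among them Mup4 fell furthest with PFOA on CD, from 2.14 to 0.114 mean CPM (-4.17 ± 1.01, edgeR adjusted p = 0.00465). The row that GENCODE calls Mup22 is named Gm21320 in the table; it was matched by its identifier after its values were seen. It averaged 56.3 CPM in CD vehicle, 24.2 in CD PFOA, 29.3 in HFD vehicle and 26.8 in HFD PFOA, was called in no comparison (PFOA on CD -1.22, edgeR adjusted p = 0.0977), and shares 481 of 491 coding stretches of 50 bases with Mup10.

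The growth hormone receptor and its transducer STAT5B were lower with PFOA at the level of their mRNA. Ghr, the growth hormone receptor, measured 649, 843, 760 and 595 CPM in CD vehicle and 360, 402, 414 and 397 CPM in CD PFOA livers, and 551, 537, 590 and 530 CPM in HFD vehicle and 403, 353, 301 and 371 CPM in HFD PFOA livers. Treated and control livers did not overlap on either diet. Ghr fell by 0.86 on the log2 scale on CD (± 0.11, edgeR adjusted p = 7.60e-06) and by 0.63 on HFD (± 0.11, 0.000327), and by 0.37 with HFD in vehicle mice (± 0.11, 0.0363).

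Prlr, the prolactin receptor, a related receptor that also signals through STAT5, measured 133 to 177 CPM in CD vehicle, 52.1 to 59.3 in CD PFOA, 62.2 to 106 in HFD vehicle and 17.5 to 45.4 in HFD PFOA livers. Its log2 fold change was -1.44 ± 0.21 for PFOA on CD (edgeR adjusted p = 3.42e-05), -1.30 ± 0.21 on HFD (0.000164) and -1.05 ± 0.21 for HFD in vehicle mice (0.00304). Stat5b, the transducer, measured 52.9 to 80.7 CPM in CD vehicle, 36.5 to 42.2 in CD PFOA, 52.6 to 68.2 in HFD vehicle and 43.8 to 47.5 in HFD PFOA livers. It fell with PFOA (-0.66 ± 0.12, edgeR adjusted p = 0.000273 on CD, and -0.49 ± 0.12, 0.00527 on HFD), but its estimate for HFD in vehicle mice was 0.03 ± 0.11 (0.924).

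Targets of the pathway did not move in 1 direction. Igf1, the hormone that liver releases under growth hormone, fell in all 3 comparisons (-0.65 for PFOA on CD, -0.64 on HFD and -0.53 for HFD in vehicle mice), whereas Socs2, a STAT5 target that damps the signal, rose with PFOA on CD (1.50 ± 0.30, edgeR adjusted p = 0.000913) and had an estimate of 0.42 on HFD that did not pass (0.408). Igfbp2, a binding protein of IGF, rose with PFOA on both diets (1.20 and 2.10). Cish, another STAT5 target, and the repressors Bcl6 and Cux2, which take part in the sex bias of liver genes, were not called in any comparison (log2 fold changes of 0.86, -0.94 and -0.84 for PFOA on CD). Of the 21 listed growth hormone pathway genes 2 rose and 5 fell with PFOA on CD, 1 rose and 6 fell on HFD, and 0 rose and 4 fell with HFD in vehicle mice. The medians of the list were -0.10, 0.04 and -0.20, against -0.0024, 0.0074 and -0.028 for all genes. With PFOA 11.8% of all tested genes rose and 12.6% fell on CD, and 8.60% and 7.91% on HFD. With HFD in vehicle mice 5.19% rose and 5.21% fell. The counts of pathway genes that rose thus lie below the background and those that fell lie above it, and no test of the list was run.

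**Figure D5:**
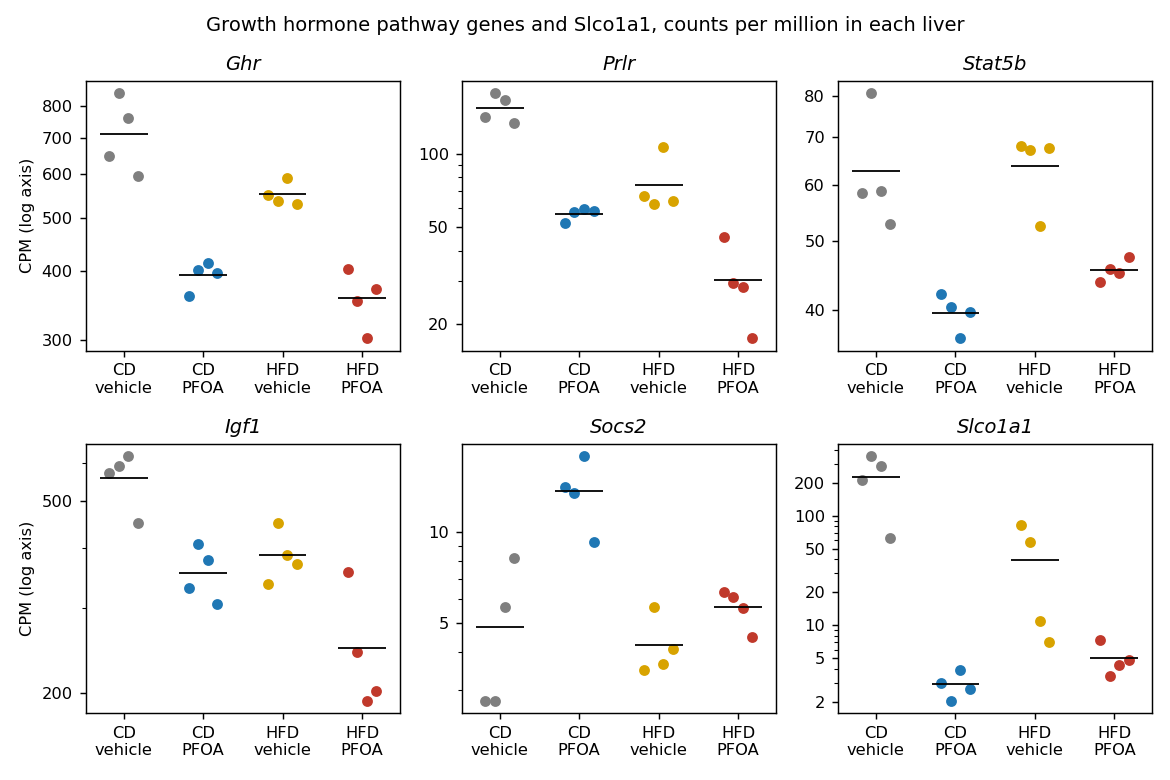
CPM (log axes) of Ghr, Prlr, Stat5b, Igf1, Socs2 and Slco1a1 in each of the 16 livers, with a line at the mean of each group of 4. Ghr, Prlr and Stat5b sit lower in PFOA livers than in vehicle livers of the same diet without overlap, whereas Socs2 sits higher in CD PFOA livers.

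Other genes with male-biased expression in mouse liver gave mixed counts. Of 22 tested, 11 fell and 4 rose with PFOA on CD, 5 fell and 3 rose on HFD, and 9 fell and 0 rose with HFD in vehicle mice (medians -0.95, -0.40 and -0.79). In the same order 12.6% of all tested genes fell and 11.8% rose, then 7.91% and 8.60%, then 5.21% and 5.19%. The listed genes thus fell in a larger share than all genes in each comparison, and the list was not tested as a set. Slco1a1, an organic anion transporter, fell with PFOA on CD (-6.30 ± 0.71, edgeR adjusted p = 1.82e-06) from 212, 352, 287 and 62.3 CPM to between 2.03 and 3.92 CPM, and on HFD (-3.00 ± 0.62, 0.00183). Hsd3b5, a steroid dehydrogenase, fell with PFOA on CD (-8.70 ± 1.02, edgeR adjusted p = 3.00e-06) and with HFD in vehicle mice (-6.70 ± 0.87, 0.000126), CD vehicle 4 having 1.45 CPM against 34.5 to 75.7 in the other controls. Cyp4a12a, a fatty acid hydroxylase, rose with PFOA on both diets (1.85 ± 0.24, edgeR adjusted p = 1.07e-05, and 3.16 ± 0.25, 2.58e-08) and fell with HFD in vehicle mice (-1.37 ± 0.24, 0.00126).

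Female-biased liver genes were not uniform either. Of 22 tested, 10 rose and 4 fell with PFOA on CD, 8 rose and 5 fell on HFD, and 5 rose and 3 fell with HFD in vehicle mice. In the same order 11.8% of all tested genes rose and 12.6% fell, then 8.60% and 7.91%, then 5.19% and 5.21%. Cyp2b10, a xenobiotic hydroxylase, rose by 8.07 ± 0.44 on the log2 scale with PFOA on CD and by 5.52 ± 0.38 on HFD, and Cyp4a14, a fatty acid hydroxylase that also stands in the PPARA list, by 4.16 ± 0.18 and 4.44 ± 0.19. Ntrk2, a neurotrophin receptor, fell on both diets (-4.79 ± 0.47 and -6.14 ± 0.45).

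Transcription factors that act on sex-biased and hepatocyte genes included changes in both directions, 11 of 28 higher and 4 lower with PFOA on CD, 5 higher and 6 lower on HFD, and 3 higher and 3 lower with HFD in vehicle mice. Of all tested genes 11.8% rose and 12.6% fell, 8.60% and 7.91%, and 5.19% and 5.21% in these comparisons. The count that fell with PFOA on CD is thus near the background. The other counts lie above it, those for HFD in vehicle mice by few genes, and the list was not tested as a set. Dbp, a circadian activator, rose in these 3 comparisons (4.52 ± 0.41, 2.48 ± 0.36 and 1.6 ± 0.42), and Nfil3, which binds similar sites as a repressor, fell with PFOA (-1.63 ± 0.20 and -0.87 ± 0.19). The labels used here do not state the time of day at which livers were taken. Hnf4a, a central hepatocyte factor, fell by 0.48 with PFOA on CD and by 0.41 on HFD. Onecut1 rose with PFOA (1.74 ± 0.31 and 1.67 ± 0.33) and was lower on HFD in vehicle mice (-1.39 ± 0.33). Zhx2, a known regulator of Mup genes, was called in none of the comparisons (-0.11 ± 0.11 for PFOA on CD, edgeR adjusted p = 0.505).

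Among receptors and targets of the other hormones that act on Mup genes, 5 of 14 fell and 2 rose with PFOA on CD, and 4 fell and 1 rose on HFD. Over all tested genes 12.6% fell and 11.8% rose on CD, and 7.91% and 8.60% on HFD. Tsc22d3, a glucocorticoid target, fell by 2.56 (± 0.18) on CD and by 1.85 (± 0.18) on HFD, and Tat, a tyrosine aminotransferase under glucocorticoid control, fell by 1.54 (± 0.15) and by 0.81 (± 0.15). Me1, malic enzyme, a thyroid hormone target that PPARA also induces, rose on both diets (0.98 ± 0.23 and 1.6 ± 0.24).

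The size of the members' changes can be set beside that of other secreted liver proteins. Of 32 other abundant secreted hepatocyte proteins 23 fell with PFOA on CD, 20 on HFD and 20 with HFD in vehicle mice, and 0 rose, but with medians of -0.73, -0.48 and -0.54. As background for each list here, 12.6% of all tested genes fell and 11.8% rose with PFOA on CD. On HFD 7.91% fell and 8.60% rose with PFOA, and with HFD in vehicle mice 5.21% fell and 5.19% rose. Alb, serum albumin, fell by 0.88 (± 0.14) on CD and by 0.66 (± 0.14) on HFD, and Ahsg, fetuin-A, by 0.88 (± 0.09) and 0.70 (± 0.09). Of 10 tested lipocalins and relatives outside the Mup cluster, 6 fell and 1 rose with PFOA on CD and 4 fell and 1 rose on HFD. C8g, a complement lipocalin, fell by 1.12 (± 0.13) and by 0.77 (± 0.12), and Fabp1, the liver fatty acid binding protein, was the one that rose (0.91 ± 0.11 and 1.35 ± 0.11). Of 24 acute phase genes 15 fell with PFOA on CD and 8 on HFD, and 0 rose. The CD controls include CD vehicle 1, the liver with all acute phase genes raised (76346 CPM summed), whose part in the count on CD was not tested.

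Over the 16 libraries the genes most like the summed members in log2 CPM, among 7522 genes with a mean of at least 10 CPM, were Cyp4f14, a leukotriene and fatty acid hydroxylase (r = 0.983), Gpld1, a phospholipase that cleaves membrane anchors (0.982), Laptm4a (0.978), Gdi2 (0.977), Hsd11b1, which regenerates active glucocorticoid (0.973), and Dhrs1 (0.972). Most opposite were Cbfa2t3 (-0.981), Ucp2, a mitochondrial carrier (-0.980), Pnpla2, a triglyceride lipase (-0.977), Gpat3 (-0.975), Vldlr, a lipoprotein receptor (-0.974), and Kdm6b (-0.971). These values reflect the group differences in large part. For deviations from the group means r ran from 0.515 (Hsd11b1) to 0.757 (Cyp4f14) among the genes most alike. Among the most opposite it ran from -0.578 (Vldlr) to -0.807 (Ucp2). The correlations do not measure the size of a change. With PFOA on CD the genes most alike fell 14.3-fold (Cyp4f14), 8.16-fold (Hsd11b1), 3.80-fold (Gpld1), 1.66-fold (Dhrs1), 1.28-fold (Gdi2) and 1.24-fold (Laptm4a). The summed members had a mean CPM 14.2 times as high in CD vehicle as in CD PFOA livers. The points share library depth and the 4 groups, and the correlations are descriptions.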

How the data were processed

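Total RNA from flash-frozen livers was made into non-stranded libraries, per the labels' protocols, so reads from overlapping genes on opposite strands cannot be told apart. The authors deposited 1 table of raw read counts per gene. The submitters' processing notes name featureCounts (Subread 1.6.0) and STAR 2.5.2b, Trimmomatic 0.33 and, first in their list, bcl2fastq 2.20.0.422, and the build GRCm38 (mm10). Not given in the sources used here were the annotation release, read length and treatment of reads that map to several genes, and the last of these bears on every near-identical Mup row and on Mup20. Of 53465 gene identifiers 50604, including all 10 members, matched GENCODE M21 with their version.

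Counts as deposited were tested with edgeR 4.0.16 (R 4.3.3): filterByExpr, TMM scaling and a quasi-likelihood fit of 4 groups over all 16 libraries (common biological coefficient of variation 0.242), 5 contrasts and Benjamini-Hochberg adjustment over 14998 genes at a threshold of 0.05. CPM used TMM-scaled totals. Standard errors are the log2 estimate over the root of the F statistic, and 95% intervals use them with a t distribution on the 12 residual degrees of freedom. The test itself uses more degrees of freedom, so the intervals and the p-values are not strictly matched. Alternatives used DESeq2 1.42.0, limma-voom (limma 3.58.1), other scalings, no filter, separate fits and left-out libraries. The pipeline was tested on simulated data. Replicate numbers follow record order and pair nothing. Replicates of a group differed beyond sampling noise, with chi-square values per degree of freedom of 8.55 to 152.

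Named genes were all members, all other Mup symbols, up to 4 genes with the smallest p from each pathway list per contrast, 7 growth hormone pathway genes, and the 6 genes most and least like the members; further genes of the same lists were chosen after their values were seen. The members and lists were chosen with earlier results of these data known.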

Additional observations from a re-analysis of the deposited data

Results flagged for a closer look

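Values of 1 liver far from the other 3 of its group were searched for in 56 groups of 4 values (10 members and 4 summed quantities), by the gap to the nearest liver as a share of the group's range, with a critical value of 0.829 that chance passes in about 5% of groups. It was passed 13 times, and the members are not independent of each other. HFD PFOA 1 was high for Mup1 (1.31 CPM, next 0.233), Mup3 (416, next 164), Mup17 (60.2, next 15.7), the summed near-identical members (70.5, next 19.1) and the members' share of counts (0.0632%, next 0.0289%), and low for Mup21 counts per Mup3 count (0.0168, next 0.0341). HFD vehicle 1 was high for Mup11 (22.0 CPM, next 2.45), Mup17 (116, next 20.2) and Mup21 counts per Mup3 count (0.0118, next 0.00918). CD vehicle 4 was low for Mup7 (0.342 CPM, next 26.0) and high for Mup20 counts per Mup3 count (0.254, next 0.0977). Mup10 was high in CD vehicle 2 (0.686 CPM, next 0.187) and in CD PFOA 2 (0.331 CPM, the other livers at 0), on 15 and 8 counts.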

How the results depend on the processing

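Mup3, Mup20 and Mup21 stayed called under PFOA on both diets in all 25 alternatives, as did Mup20 and Mup21 for HFD in vehicle mice; Mup10 was tested only without the filter, where it was called in no comparison, and depth limits it and the other rows under about 50 counts. No paired analysis was possible because the replicate numbers follow record order. Members called lower for PFOA on CD fell from 6 to 3 with limma-voom (4 to 8 on leaving out 1 library). For HFD in vehicle mice 3 became 6 without the filter and 7 without the 3 libraries named in the report (1 to 5 on leaving out 1). For HFD in PFOA mice 0 lower became 1 without the filter (Mup21, adjusted p = 0.00973) and 1 without the 3 libraries. For the interaction 0 higher became 3 without the filter, 2 without the 3 libraries and 3 without CD vehicle 1 and 4 (0 to 2 on leaving out 1), and 0 lower became 1 without the filter (Mup20, adjusted p = 0.00116). The cause was not tested. Only estimates that were not called changed sign. For HFD in PFOA mice without the 3 libraries these were Mup1 (-0.16), Mup3 (-0.55), Mup7 (-1.03) and Mup20 (-0.13), with limma-voom Mup3 (-0.15) and Mup7 (-0.28), and with library totals alone Mup17 (0.011). For PFOA on HFD they were Mup11 (0.0031) and Mup17 (0.10) without the 3 libraries and Mup1 (0.31) and Mup17 (0.028) with limma-voom. On leaving out 1 library the estimates for HFD in PFOA mice ranged from -0.16 to 2.89 for Mup1, -1.38 to 0.029 for Mup11, -1.06 to 0.24 for Mup17, -0.13 to 0.21 for Mup20, -0.55 to 0.18 for Mup3 and -1.04 to 1.04 for Mup7, those for PFOA on HFD from -1.64 to 1.14 for Mup1, -2.57 to 1.04 for Mup11 and -1.69 to 1.11 for Mup17, and those for HFD in vehicle mice from -0.64 to 0.12 for Mup2.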
